A study of Mus musculus with 8 samples.

Results

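The Cyp4 genes encode cytochromes P450 that place a hydroxyl group on the last (omega) carbon of fatty acids. The 10 genes described here are Cyp4a10, Cyp4a12a, Cyp4a12b, Cyp4a14, Cyp4a31, Cyp4a32, Cyp4f13, Cyp4f14, Cyp4f15 and Cyp4v3, taken by symbol from the 23282 rows of liver RNA-seq counts. Livers came from C57BL/6 mice (4 weeks of age) in 3 groups. The control group (2 libraries) was injected with saline and the endotoxemic group (4 libraries) with 25 mg/kg LPS, the endotoxin of gram-negative bacteria. The LGK974 group (2 libraries) received, by the study's methods, 60 mg/kg of LGK974, an inhibitor of Wnt secretion, and 25 mg/kg LPS, whereas the labels of this group give neither a dose nor LPS. By the same methods LGK974 mostly preceded LPS by 2 h, and livers were taken 6 h after LPS.

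Omega-hydroxylation opens a side route of fatty acid breakdown in the hepatocyte. The hydroxylated fatty acid is oxidized by alcohol and aldehyde dehydrogenases to a dicarboxylic acid, which peroxisomes shorten. Cyp4a enzymes act on medium- and long-chain fatty acids, including arachidonic acid, and Cyp4a10 and Cyp4a14 are classical target genes of the fatty acid receptor PPARα. Cyp4f enzymes act on long-chain fatty acids and on eicosanoids such as leukotriene B4, and Cyp4v3 is the mouse counterpart of the gene mutated in human Bietti crystalline dystrophy. Cyp4a12a and Cyp4a12b are known as male-predominant genes of the mouse.

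Endotoxemic libraries 3 and 4 held the same count as libraries 1 and 2 on all 23282 rows and were counted once, which left 2 distinct libraries in each group and 6 in all. Total counts ranged from 9142116 in endotoxemic library 1 to 15222439 in control library 2. A signal of 3 counts corresponds to 0.196 to 0.327 CPM (the count of a gene relative to the library total, scaled by TMM) and covers counting error only. No source used here states that the libraries of a group came from separate mice, so p-values measure only the spread between these libraries. Of the 23282 rows, 581 carry a symbol that lies out of genomic order between its neighbours. All 10 Cyp4 rows were in order, and the only neighbouring symbol that is not a genomic neighbour was Slamf8, on the row before Cyp4v3.

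The labels describe the mice as male, and the counts of sex chromosome genes went against this for the control and endotoxemic groups. Xist, the RNA that silences an X chromosome in female cells, was counted 1444 and 3115 times in control, 1171 and 1884 times in endotoxemic, and 3 and 7 times in LGK974 liver. The Y-linked gene Ddx3y had 0 counts in all 4 control and endotoxemic libraries and 1755 and 1392 counts in the LGK974 libraries. The control and endotoxemic libraries thus shared one pattern and the LGK974 libraries had the other. In every comparison with the LGK974 group, treatment and this difference between the libraries cannot be told apart.

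The Cyp4a genes lie side by side on mouse chromosome 4, and some are so alike that a short read may fit more than 1 of them. The last 90 coding bases of the transcripts are shown because they are the shared coding part nearest to the 3′ ends that were sequenced. They were read from GRCm38 at the GENCODE annotation, 5′ to 3′ on the coding strand and with the stop codon. Capitals in the first block mark bases that differ from Cyp4a10 (chr4:115532610-115532699, plus strand), with Cyp4a31 at chr4:115578015-115578104, Cyp4a32 at chr4:115621513-115621602 (both plus) and Cyp4a14 at chr4:115487143-115487232 (minus).
Cyp4a10: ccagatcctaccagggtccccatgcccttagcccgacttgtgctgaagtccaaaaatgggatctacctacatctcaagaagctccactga
Cyp4a31: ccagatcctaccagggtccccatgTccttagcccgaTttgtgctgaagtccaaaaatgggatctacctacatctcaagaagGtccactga
Cyp4a32: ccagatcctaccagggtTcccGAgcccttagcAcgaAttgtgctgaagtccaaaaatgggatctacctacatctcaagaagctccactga
Cyp4a14: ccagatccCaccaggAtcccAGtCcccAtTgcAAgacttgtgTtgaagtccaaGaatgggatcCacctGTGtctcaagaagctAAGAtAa

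Cyp4a31 differed from Cyp4a10 at 3 of these bases, Cyp4a32 at 5 and Cyp4a14 at 20. Over the whole coding sequence, Cyp4a10 was 96.6% identical to Cyp4a31, 97.2% to Cyp4a32 and 75.1% to Cyp4a14. The annotated Cyp4a32 transcript ends at its stop codon, whereas 521 bases follow it in Cyp4a10 and 911 in Cyp4a31. The other pair comprises Cyp4a12a at chr4:115331913-115332002 and Cyp4a12b at chr4:115438136-115438225 (both plus strand). No capitals appear because the 2 stretches differ at 0 bases.
Cyp4a12a: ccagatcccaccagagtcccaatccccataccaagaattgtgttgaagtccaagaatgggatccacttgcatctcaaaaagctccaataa
Cyp4a12b: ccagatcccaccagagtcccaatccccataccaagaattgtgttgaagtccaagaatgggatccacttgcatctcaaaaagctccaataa

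Cyp4a12a and Cyp4a12b were 98.5% identical over the coding sequence and 95.6% over the last 400 bases of the transcript, where 47.6% of the 50-base windows of one occur unchanged in the other. Over the same last 400 bases Cyp4a10 and Cyp4a31 were 92.3% identical and shared 0% of such windows, while 43% of the windows of Cyp4a32 occur in Cyp4a10 and 46.2% in Cyp4a31. How the authors' counting treated reads that fit 2 genes is not given in the sources used here, so the split between Cyp4a12a and Cyp4a12b, and the counts of Cyp4a32, are uncertain. The Cyp4f genes lie on chromosome 17 and Cyp4v3 on chromosome 8.

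In saline-injected liver, 2 genes supplied most Cyp4 counts. Cyp4a10 and Cyp4a14 together held 81.3% and 80.5% of the counts of the 10 genes in the control libraries. With 3′-end sequencing a count does not grow with transcript length, so shares of counts were compared without a length correction. The 2 control libraries were close to each other for these genes: Cyp4a14 had 2040 and 1920 CPM and Cyp4a10 861 and 878 CPM. Cyp4v3 followed with 277 and 278 CPM, Cyp4f14 with 198 and 199 CPM and Cyp4f15 with 121 and 133 CPM. Cyp4f13 (32.9 and 34.8 CPM), Cyp4a31 (30.2 and 25.7 CPM) and Cyp4a32 (4.83 and 6.6 CPM) were lower. Cyp4a12a had 30 and 13 counts and Cyp4a12b 2 and 12 counts, of which only the 2 counts lie under the limit of 3.

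**Figure D1:**
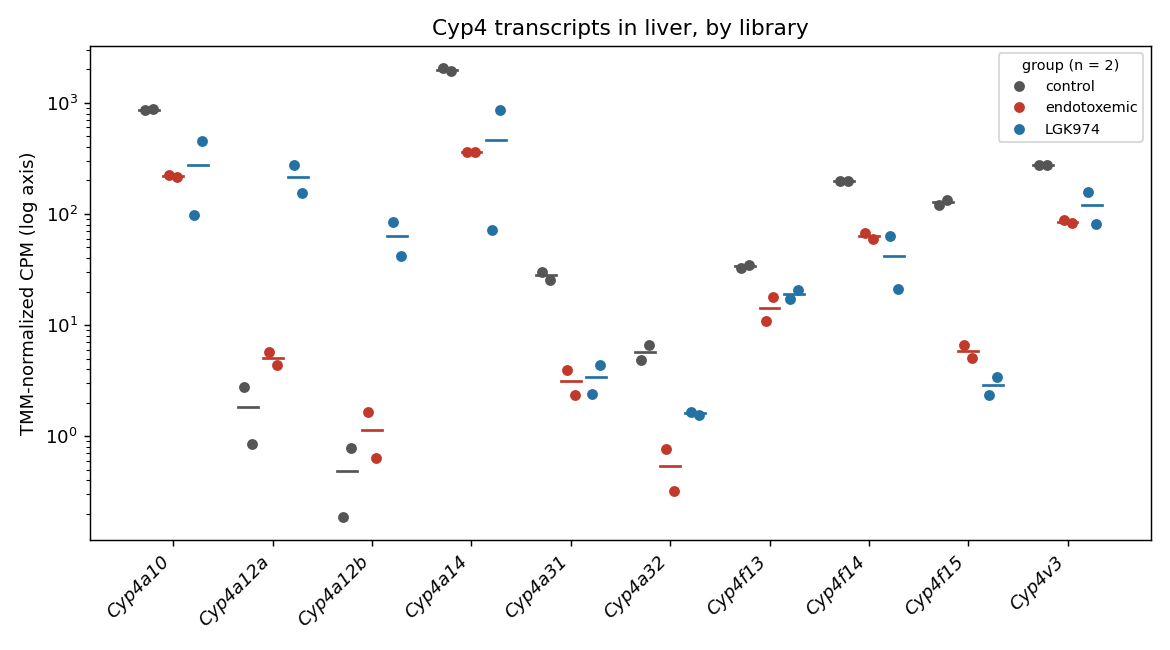
TMM-normalized CPM (log axis) of the 10 Cyp4 genes, with 1 point for each of the 6 distinct libraries and a bar at the mean of each group (n = 2). For Cyp4a14, the most abundant gene in control liver, the endotoxemic points (362 and 359 CPM) lie below the control points (2040 and 1920 CPM). The LGK974 points of Cyp4a12a and Cyp4a12b lie above the other points of these genes.

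The comparison of endotoxemic with control liver asked how LPS injection changed these transcripts. Of the 10 genes, 8 were lower and 1 (Cyp4a12a) was higher in the endotoxemic group, and Cyp4a12b did not pass the test (edgeR's quasi-likelihood test, Benjamini-Hochberg adjusted p under 0.05). Among all 12701 rows tested, 23.0% were lower and 20.4% higher by the same rule. The median log2 fold change was −1.84 over the 10 genes and 0.01 over all rows tested. In whole liver, fewer cells of a type and less RNA per cell cannot be told apart.

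Among the Cyp4a genes, Cyp4a14 had 2040 and 1920 CPM in control and 362 and 359 CPM in endotoxemic liver. The groups did not overlap and the log2 fold change was −2.46 (SE 0.82, adjusted p = 0.0366 by edgeR). For Cyp4a10, which had 861 and 878 CPM in control liver, the endotoxemic libraries had 224 and 216 CPM (log2 fold change −1.98, SE 0.55, edgeR adjusted p = 0.0169). These SE take in the wide gap between the LGK974 libraries described below. When control and endotoxemic libraries were fitted alone, the SE of both genes was 0.14 and the edgeR adjusted p was 7.19e-08 for Cyp4a14 and 4.08e-07 for Cyp4a10. In the fit of all groups both calls were lost when any 1 control or endotoxemic library was left out, with adjusted p of 0.0623 to 0.156, and DESeq2 gave an adjusted p of 0.095 for Cyp4a14.

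The close relatives of Cyp4a10 also fell. Cyp4a31 had 30.2 and 25.7 CPM in control liver against 3.93 and 2.35 CPM in endotoxemic liver, an 8.88-fold fall (log2 fold change −3.15, SE 0.38, edgeR adjusted p = 0.000201). Counts of Cyp4a32 fell from 52 and 101 to 7 and 3 (log2 fold change −3.38, SE 0.59, edgeR adjusted p = 0.0017). Over the alternatives its log2 fold change ran from −4.06 to −2.89. Counts of Cyp4a31 per count of Cyp4a10 were 3.5% and 2.92% in control and 1.75% and 1.08% in endotoxemic liver. With the counts of Cyp4a10, Cyp4a31 and Cyp4a32 summed, the log2 fold change was −2.01 (edgeR adjusted p = 0.0148). The sum does not depend on how counted reads were split among these genes. Cyp4a10 supplied nearly all of it, so it follows that gene and does not settle how Cyp4a31 and Cyp4a32 changed.

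Cyp4a12a went the other way at a low level. Its counts were 30 and 13 in control liver and 53 and 41 in endotoxemic liver, which gave 1.55 on the log2 scale (SE 0.52, edgeR adjusted p = 0.0361). This call was lost without endotoxemic library 1 (adjusted p = 0.149), endotoxemic library 2 (0.0771) or control library 2 (0.211). The value was 2.56 on the log2 scale without control library 1 and 0.87 without control library 2. Cyp4a12b had 2 and 12 counts against 15 and 6 counts, and the groups overlapped (log2 fold change 1.10, 95% interval −0.64 to 2.83). Its value ran from 0.34 to 2.55 over the alternatives.

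All 3 Cyp4f genes fell. Cyp4f15 showed the largest fall of the 10 genes in this fit, from 121 and 133 CPM to 6.66 and 5.01 CPM. This is a 21.8-fold difference (log2 fold change −4.45, SE 0.27, edgeR adjusted p = 4.34e-06), and the gene kept its call in all 15 alternative analyses with log2 fold changes of −4.6 to −4.25. Cyp4f14, a leukotriene B4 hydroxylase, fell from 198 and 199 CPM to 66.9 and 59.4 CPM (log2 fold change −1.65, SE 0.41, edgeR adjusted p = 0.0103). Cyp4f13 had 32.9 and 34.8 CPM in control liver and 10.9 and 17.8 CPM in endotoxemic liver (log2 fold change −1.24, SE 0.27, edgeR adjusted p = 0.00598). The 95% interval of Cyp4f15 (−5.05 to −3.85) lay apart from those of Cyp4f14 (−2.57 to −0.73) and Cyp4f13 (−1.85 to −0.62), which overlapped, and the difference between genes was not itself tested. Without endotoxemic library 1 the calls of Cyp4f13 (log2 fold change −0.87, adjusted p = 0.0699) and Cyp4f14 (0.059) were lost, and without endotoxemic library 2 that of Cyp4f14 (0.0785).

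Cyp4v3 had 277 and 278 CPM in control liver and 87.7 and 82.2 CPM in endotoxemic liver. The 2 libraries of each group were nearly equal, and the difference was −1.71 on the log2 scale (SE 0.29, edgeR adjusted p = 0.00159). Summed over the 10 genes, the level was 3570 and 3480 CPM in control and 770 and 747 CPM in endotoxemic liver. Cyp4a10 and Cyp4a14 together held 76.1% and 77.0% of the counts of the 10 genes in endotoxemic liver.

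Markers of liver cell types moved with this comparison. Of 11 tested hepatocyte markers whose rows were in order, 8 were lower and 1 higher, and their summed level was 94500 to 132000 CPM in control and 72700 to 102000 CPM in endotoxemic libraries. Fgb, an acute-phase gene, was the 1 that rose, and without it the sum was 120000 and 86000 CPM in control and 53400 and 35500 CPM in endotoxemic liver. All 6 tested neutrophil markers in order were higher, with sums of 3.27 to 4.08 CPM in control and 105 to 112 CPM in endotoxemic liver, and 2 of the 6 had 0 counts in both control libraries. Of 8 tested Kupffer cell markers in order, 4 were lower (among them Vsig4, log2 fold change −2.76) and 1, Marco, was higher (3.70), and their sum was 238 to 248 CPM in control and 229 to 230 CPM in endotoxemic liver. Without Marco the sum was 231 and 242 CPM in control and 134 and 154 CPM in endotoxemic liver. Of 8 tested sinusoidal endothelial markers in order, 5 were lower (among them Kdr, −5.36) and 1, Lyve1, was higher (3.03). Their sum was 352 CPM in control and 422 to 441 CPM in endotoxemic liver, and without Lyve1 it was 303 and 317 CPM and 81.5 and 85.8 CPM. Of 8 tested stellate cell markers in order, 5 were lower (among them Lrat, −2.93) and 1, Dcn, was higher (0.60), and of 6 tested cholangiocyte markers Krt19 was lower (−4.87) and Sox9 higher (3.12). The stellate sum was 443 to 451 CPM in control and 538 to 586 CPM in endotoxemic liver, and the cholangiocyte sum 33.7 to 34.4 CPM and 86.0 to 92.7 CPM. Without Dcn the stellate sum was 104 and 92.9 CPM in control and 37.1 and 33.2 CPM in endotoxemic liver, and without Sox9 the cholangiocyte sum was 24.6 and 25.8 CPM and 12.2 and 13.3 CPM. In LGK974 liver the sums were 80800 to 81100 CPM for hepatocyte, 70.5 to 73.1 CPM for neutrophil, 140 to 177 CPM for Kupffer cell, 465 to 559 CPM for endothelial, 460 to 552 CPM for stellate cell and 42.6 to 96.1 CPM for cholangiocyte markers. With the same single genes left out, the LGK974 sums were 42700 and 39600 CPM for hepatocyte, 79.6 and 80.1 CPM for Kupffer cell, 66.1 and 60.5 CPM for endothelial, 41.2 and 43.6 CPM for stellate cell and 18.0 and 24.8 CPM for cholangiocyte markers. Each lay below both control sums except the cholangiocyte sum of LGK974 library 2. Each gene left out was the 1 of its list called higher in endotoxemic liver, so a lower remaining sum was partly fixed by that choice. With those genes kept, the LGK974 sums lay below control for hepatocyte and Kupffer cell markers. They lay above control for endothelial, stellate cell and cholangiocyte markers. The part of these differences in the Cyp4 results was not tested. Cyp4f18, the Cyp4f gene of neutrophils, had 0 counts in both control libraries, 1 and 5 in the endotoxemic and 7 and 21 in the LGK974 libraries, and was too low to be tested.

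**Figure D2:**
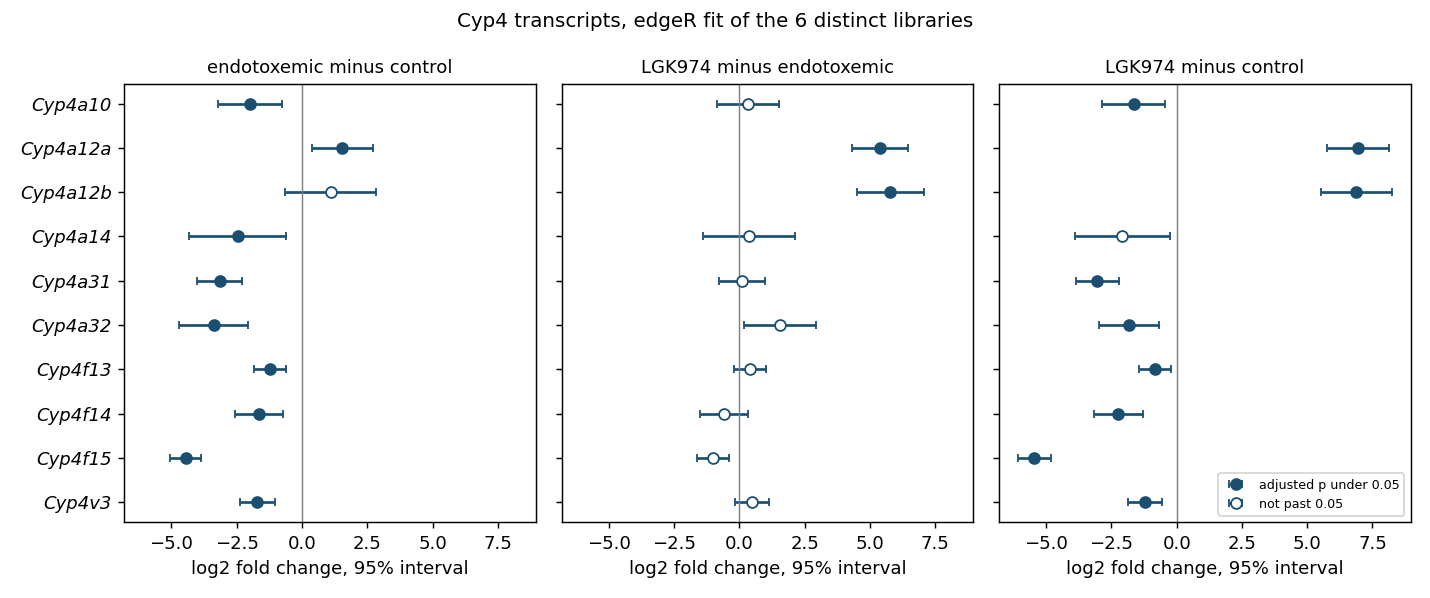
Log2 fold changes of the 10 Cyp4 genes with 95% intervals in 3 comparisons from 1 edgeR fit, where filled points have an adjusted p under 0.05. In the first comparison 8 genes are filled to the left of 0, and in the second only Cyp4a12a and Cyp4a12b are filled.

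The comparison of LGK974 with endotoxemic liver asked what LGK974 changed in LPS-injected mice. Cyp4a12a and Cyp4a12b were higher in the LGK974 group, 0 of the 10 genes were lower, and 8 did not pass the test. Over all rows tested, 2.80% were higher and 2.82% lower. The median log2 fold change was 0.38 over the 10 genes and 0.031 over all rows tested.

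Cyp4a12a had 5.78 and 4.37 CPM in endotoxemic and 275 and 154 CPM in LGK974 liver. That is a 42.2-fold difference (log2 fold change 5.40, SE 0.48, edgeR adjusted p = 0.000672), with no overlap between groups. Cyp4a12b had 1.64 and 0.64 CPM against 84.8 and 41.5 CPM, a 55.2-fold difference (log2 fold change 5.79, SE 0.57, edgeR adjusted p = 0.00126). Over the alternatives the log2 fold change ran from 4.92 to 5.76 for Cyp4a12a and from 5.18 to 6.58 for Cyp4a12b. With the counts of these near-identical genes summed, the log2 fold change was 5.48 (edgeR adjusted p = 0.000273). The ratio of Cyp4a12b to Cyp4a12a counts was 30.9% and 27.0% in the LGK974 libraries.

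The rise of Cyp4a12a and Cyp4a12b ran with other sex-biased genes. Of 17 tested male-biased liver genes in order outside the Cyp4 family, 9 were higher and 0 lower in LGK974 than in endotoxemic liver, with a median log2 fold change of 2.25. Mup20, a male urinary pheromone protein, had 131 and 149 CPM in the endotoxemic and 2520 and 1230 CPM in the LGK974 libraries (log2 fold change 3.75, edgeR adjusted p = 0.000896). Nox4, an NADPH oxidase, had 1 and 6 counts against 105 and 99 counts, but 79 and 159 counts in control liver (log2 fold change −0.28 for LGK974 against control, edgeR adjusted p = 0.641), so it did not follow the split of Xist and Ddx3y. Of 29 tested female-biased genes 18 were lower and 0 higher, with a median log2 fold change of −3.18, and the sulfotransferase Sult2a1 had 247 and 240 counts in the endotoxemic but 0 in both LGK974 libraries. Together with the reversed pattern of Xist and Ddx3y, these values mean that the difference in Cyp4a12a and Cyp4a12b cannot be told apart from a difference in sex between the libraries.

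**Figure D3:**
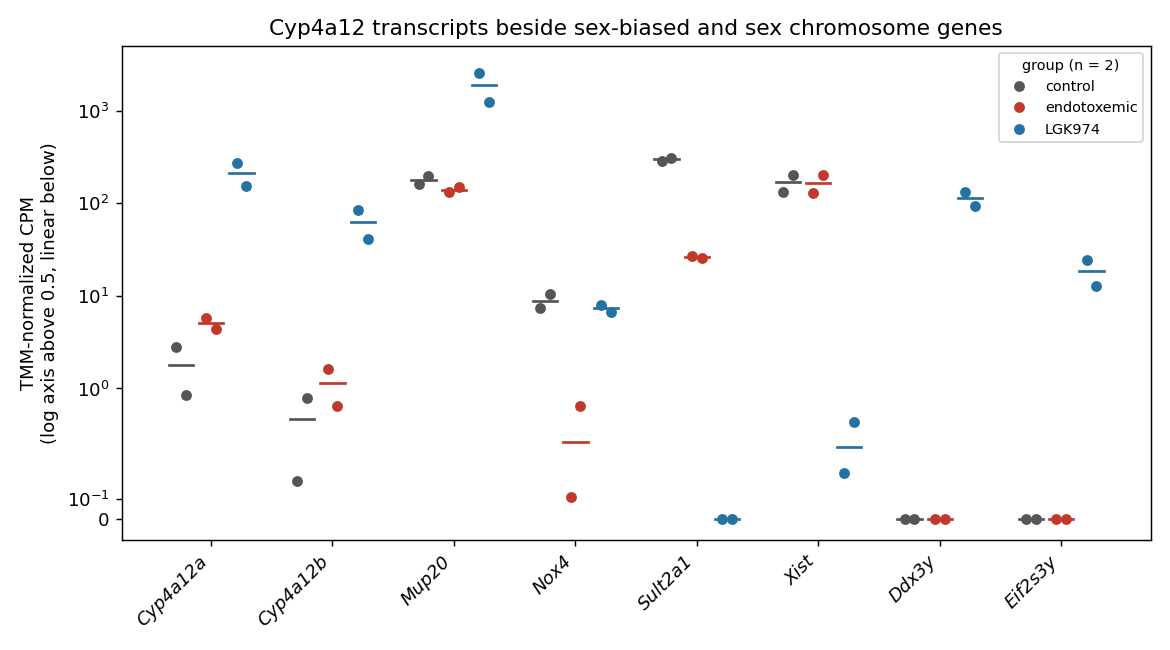
TMM-normalized CPM (log axis above 0.5, linear below) of Cyp4a12a and Cyp4a12b beside the male-biased genes Mup20 and Nox4, the female-biased gene Sult2a1, Xist and the Y-linked genes Ddx3y and Eif2s3y, with 1 point per distinct library and a bar at the group mean (n = 2). The LGK974 points are the only ones above 0 for Ddx3y and Eif2s3y and lie at 0 for Sult2a1.

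The 2 LGK974 libraries disagreed on the PPARα target genes among the Cyp4 family. Cyp4a14 had 71.9 CPM in LGK974 library 1 and 859 CPM in library 2, and the endotoxemic libraries, at 362 and 359 CPM, lay between them. Only 0.0709% of the tested rows differed more between these 2 libraries. The row of the ribosomal RNA precursor Rn45s took 4.80% and 9.38% of all counts in LGK974 libraries 1 and 2, against 7.17% to 8.26% in the others, and its part in the gap was not tested. Cyp4a10 had 97.8 and 456 CPM around the endotoxemic values of 224 and 216 CPM. The log2 fold change was 0.37 for Cyp4a14 (95% interval −1.39 to 2.13) and 0.33 for Cyp4a10 (−0.86 to 1.52), so both intervals hold falls as well as rises of over 1.5-fold.

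A single LGK974 library set the direction for these genes. With library 1 left out, the log2 fold change from endotoxemic liver was 1.26 for Cyp4a14 (edgeR adjusted p = 9.78e-05) and 1.05 for Cyp4a10 (0.000541). With library 2 left out, it was −2.33 for Cyp4a14 (4.76e-06) and −1.17 for Cyp4a10 (0.0012). In these fits the lone LGK974 library is assumed to vary like the other groups. Cyp4f14 and Cyp4v3 had the opposite order, with 63.1 and 21.2 CPM and 158 and 80.4 CPM in LGK974 libraries 1 and 2. Without library 1 Cyp4f14 was called lower (log2 fold change −1.57, edgeR adjusted p = 0.000164) and without library 2 its value was 0.00. Cyp4v3 was at −0.08 without library 1, and without library 2 it was called higher (log2 fold change 0.90, edgeR adjusted p = 0.00574).

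The make-up of the Cyp4 counts therefore differed between the LGK974 libraries. Cyp4a10 and Cyp4a14 held 21.9% of the counts of the 10 genes in library 1 and 80.1% in library 2, while Cyp4a12a and Cyp4a12b held 46.5% and 11.9%. In the control and endotoxemic libraries the share of Cyp4a12a and Cyp4a12b was between 0.047% and 0.963%. The summed level of the 10 genes was 774 CPM in LGK974 library 1, close to the endotoxemic libraries, and 1640 CPM in library 2.

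**Figure D4:**
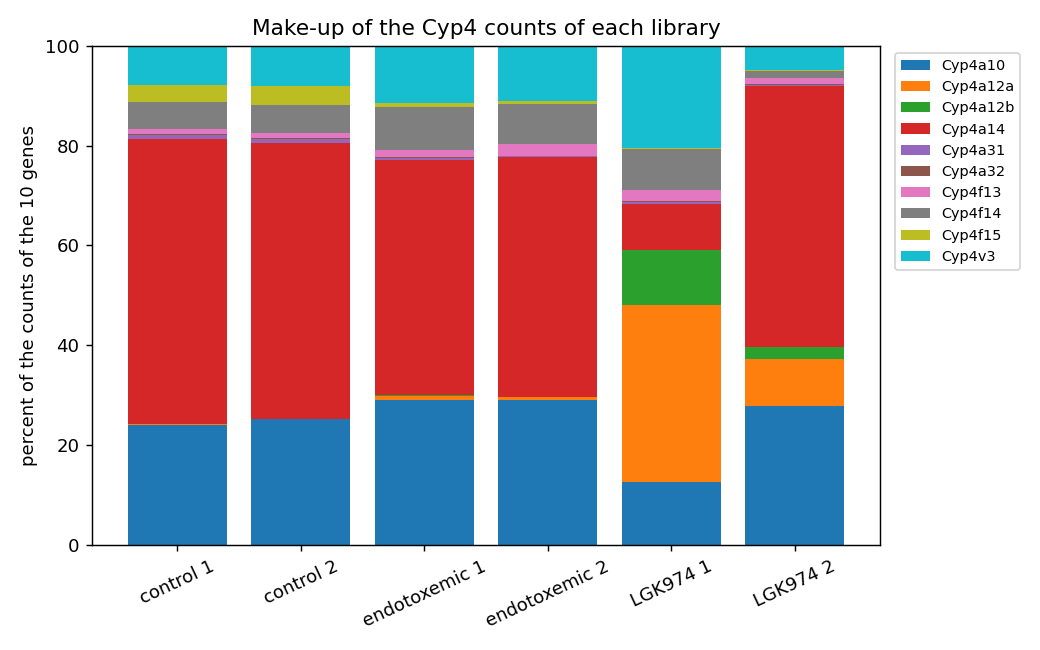
Percent of the counts of the 10 Cyp4 genes that each gene supplied, with 1 stacked bar for each of the 6 distinct libraries. Cyp4a10 and Cyp4a14 fill 76.1% to 81.3% of the bar in 4 control and endotoxemic libraries and 80.1% in LGK974 library 2, but 21.9% in LGK974 library 1.

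None of the remaining 6 genes passed the test between LGK974 and endotoxemic liver. Cyp4f15 had 2.34 and 3.38 CPM in LGK974 liver against 6.66 and 5.01 CPM, with no overlap. Its log2 fold change of −1.02 (95% interval −1.64 to −0.40) missed the threshold (edgeR adjusted p = 0.0657). DESeq2 gave an adjusted p of 0.0324, whereas edgeR on these 2 groups alone gave 0.235 (SE 0.42). The gene stayed uncalled in 11 of 15 alternatives. Cyp4a32 had 22 and 23 counts against 7 and 3 counts (log2 fold change 1.56, 95% interval 0.17 to 2.94, edgeR adjusted p = 0.171). Its log2 fold change ran from 1.06 to 2.27 over the alternatives. Cyp4a31 (log2 fold change 0.11, interval −0.77 to 1.00), Cyp4f13 (0.40, −0.22 to 1.02), Cyp4f14 (−0.58, −1.50 to 0.33) and Cyp4v3 (0.49, −0.16 to 1.14) had overlapping groups. These intervals leave room for changes of more than 1.5-fold in at least 1 direction for each gene.

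Against the control group, 7 of the 10 genes were lower and 2 higher in the LGK974 group, and Cyp4a14 did not pass the test. Of all rows tested, 17.7% were lower and 16.4% higher. This comparison shares its libraries with the other comparisons, so its values stand beside theirs and add no independent evidence. Cyp4f15 had the lowest value (log2 fold change −5.46, SE 0.28, edgeR adjusted p = 1.74e-06, a 44.1-fold difference). Falls of 3.04, 2.23, 1.83, 1.65, 1.22 and 0.84 on the log2 scale were fitted for Cyp4a31, Cyp4f14, Cyp4a32, Cyp4a10, Cyp4v3 and Cyp4f13, with edgeR adjusted p between 0.000281 and 0.042. Without LGK974 library 1 and without LGK974 library 2 the value was −0.93 and −3.15 for Cyp4a10, −3.22 and −1.65 for Cyp4f14 and −1.78 and −0.81 for Cyp4v3. Cyp4a12a and Cyp4a12b were higher by 6.95 and 6.88 on the log2 scale (edgeR adjusted p = 1.7e-05 and 4.13e-05). With either control library left out these values ran from 6.26 to 7.96 and from 6.31 to 8.33. For Cyp4a14 the value was −2.09 (95% interval −3.91 to −0.27, edgeR adjusted p = 0.0748), and with the replicate number as a block it was −2.59 (adjusted p = 0.0481). Cyp4a14 stayed uncalled in 11 of 15 alternatives, among them the fit of LGK974 and control libraries alone (SE 0.87, edgeR adjusted p = 0.113). Without the filter on low counts it was called lower (edgeR adjusted p = 2.23e-16), although its LGK974 libraries stood apart at 71.9 and 859 CPM. The value of Cyp4a14 was −1.20 without LGK974 library 1 and −4.78 without library 2. The call of Cyp4a10 was lost in a fit of the LGK974 and control libraries alone (0.0718), with upper quartile scaling (0.0539, which also ended that of Cyp4f13 at 0.0613) and with DESeq2 (0.0882). The calls of Cyp4a10, Cyp4a32, Cyp4f13 and Cyp4v3 were lost when either control library was left out (0.0612 to 0.167). Leaving out either endotoxemic library also ended the call of Cyp4a10 (0.0641 and 0.0716), and leaving out LGK974 library 1 ended that of Cyp4f13 (0.0781).

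Other Cyp4 genes had 13 rows. Only Cyp4b1, Cyp4b1-ps2 and Cyp4f16 were tested, and none was called in any of the 3 comparisons. Cyp4b1, a P450 better known from lung, had 16 and 17.1 CPM in control, 6.87 and 10.9 CPM in endotoxemic and 5.96 and 13.4 CPM in LGK974 liver (log2 fold change −0.90 for endotoxemic against control, edgeR adjusted p = 0.0988). Cyp4f17, Cyp4f37 and Cyp4f39 had at most 6 counts in any library.

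Genes that act with the omega-hydroxylases were described from lists of their roles. P450 enzymes of the endoplasmic reticulum draw electrons from the reductase Por and from cytochrome b5. Por had 228 and 203 CPM in control, 93.9 and 73.9 CPM in endotoxemic and 74.1 and 86.1 CPM in LGK974 liver (log2 fold change −1.36 for endotoxemic against control, SE 0.21, edgeR adjusted p = 0.00076, and −0.07 for LGK974 against endotoxemic, edgeR adjusted p = 0.879). Of the 5 electron donor genes 4 were lower in endotoxemic than in control liver, among them the cytochromes Cyb5b (log2 fold change −2.00) and Cyb5a (−1.75), and 0 were called between LGK974 and endotoxemic liver.

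Genes of the steps after omega-hydroxylation fell with the Cyp4 genes under LPS. Of 27 tested, 20 were lower and 0 higher, and the median log2 fold change was −1.85. The alcohol dehydrogenase Adh4 had 66.5 and 57.1 CPM in control and 3.71 and 3.62 CPM in endotoxemic liver. Aldh3a2, the fatty aldehyde dehydrogenase of this route, named for its role after its values were seen, had 148 and 160 CPM against 11.9 and 8.63 CPM (log2 fold change −3.91, edgeR adjusted p = 4.46e-06). Larger falls were fitted for Abcd2, a peroxisomal fatty acyl-CoA transporter (382 and 636 counts against 1 and 6), the acyl-CoA synthetase Acsl1 (−5.28) and the coenzyme A hydrolase Nudt7 (−4.58).

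Between LGK974 and endotoxemic liver, 5 of these 27 genes were higher and 0 lower, with a median log2 fold change of 0.40. Nudt7 had 240 and 145 CPM in LGK974 and 8.73 and 7.35 CPM in endotoxemic liver, beside 191 and 194 CPM in control liver (log2 fold change 4.58, edgeR adjusted p = 0.00011). Nudt7 is also on the list of male-biased genes. Adh7 (log2 fold change 1.85) and Adh4 (1.67) were higher too. Aldh3a2 had 109 and 81 counts in endotoxemic and 133 and 148 counts in LGK974 liver and was not called (log2 fold change −0.03, 95% interval −0.54 to 0.47).

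Ppara, which encodes the receptor PPARα, had 293 and 360 CPM in control, 12.9 and 16.0 CPM in endotoxemic, and 61.4 and 132 CPM in LGK974 liver. The 3 groups did not overlap. The log2 fold change was −4.50 for endotoxemic against control (SE 0.38, edgeR adjusted p = 2.63e-05), 2.74 for LGK974 against endotoxemic (SE 0.35, edgeR adjusted p = 0.00514) and −1.76 for LGK974 against control (edgeR adjusted p = 0.00349). Of 40 tested PPARα target genes in order outside the Cyp4 family, 31 were lower and 2 higher in endotoxemic than in control liver. The 2 that rose were the lipid droplet genes Cidec (log2 fold change 3.44) and Plin2 (1.05), and the largest falls were those of Cyp8b1, an enzyme of bile acid synthesis (−5.65), Acsl1 and the monoacylglycerol lipase Mgll (−4.75).

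Of the same 40 genes, 10 were higher and 0 lower in LGK974 than in endotoxemic liver. They included the acyl-CoA thioesterase Acot2 (log2 fold change 2.93), the lipid droplet protein Plin5 (2.91) and the lipase inhibitor G0s2 (2.47). The 2 LGK974 libraries were close for Acot2 (15.6 and 15.0 CPM) and G0s2 (47.3 and 44.2 CPM), whereas Plin5 had 24.8 and 45.7 CPM and Mgll 27.3 and 65.2 CPM. Ppara, Plin5 and Mgll were higher in LGK974 library 2 than in library 1, the order also seen for Cyp4a14 and Cyp4a10.

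**Figure D5:**
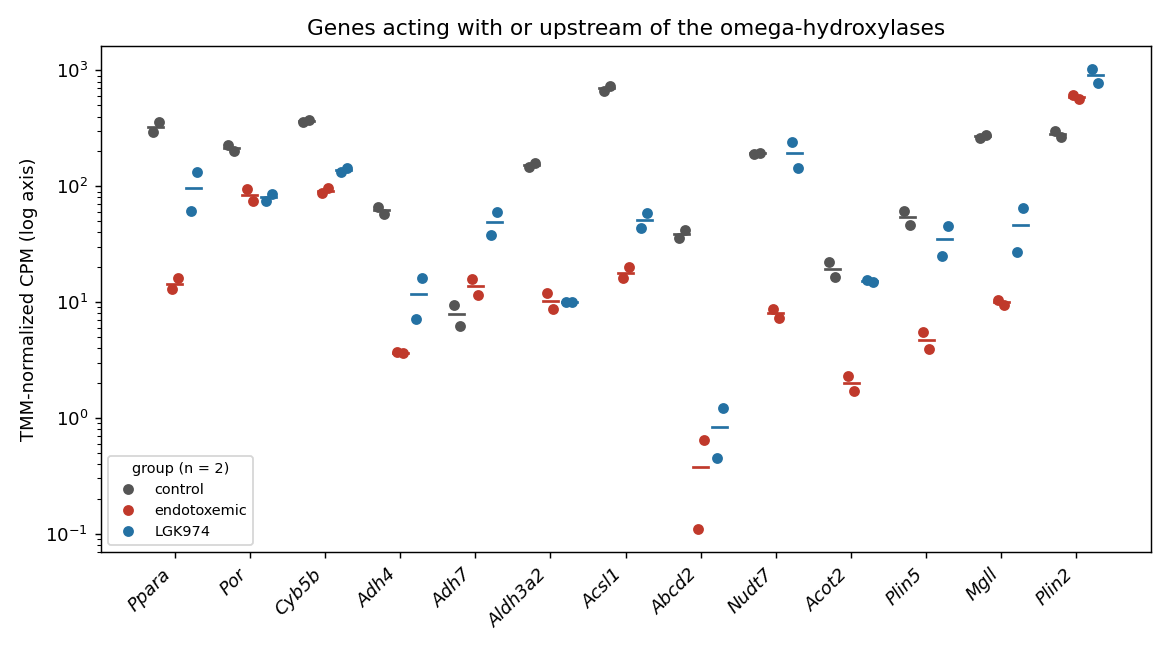
TMM-normalized CPM (log axis) of Ppara, the electron donors Por and Cyb5b, genes of later steps of fatty acid omega-oxidation and PPARα target genes, with 1 point per distinct library and a bar at the group mean (n = 2). Endotoxemic points lie below control points for Ppara (12.9 and 16.0 against 293 and 360 CPM) and above them for Plin2.

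Male-biased expression in liver depends on growth hormone signaling, so its genes are given beside Cyp4a12a and Cyp4a12b. Of 13 tested genes in order, 3 were higher and 6 lower in endotoxemic than in control liver. The number higher is near the share of all rows tested that were higher in this comparison (20.4%). The signaling inhibitors Socs1 (log2 fold change 7.16) and Socs3 (3.61) rose, and the growth hormone receptor Ghr (−2.35) and Igfals, which encodes a carrier of Igf1 (−5.24), fell. In LGK974 against endotoxemic liver Igfals was higher (1.28) and Socs1 (−1.94) and Cish (−1.67) were lower. In endotoxemic against control liver, 3 of the 17 male-biased genes were higher, also near that share, and 7 lower, and 25 of the 29 female-biased genes were lower and 0 higher. Of the genes for leukotriene B4, a substrate of Cyp4f enzymes, 5 were tested in order, and only Ptgr2, which reduces keto-eicosanoids, was called (log2 fold change −1.45 in endotoxemic liver), while 3 others, Alox5, Alox5ap and Ltb4r1, were set aside because their rows lay out of order.

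The genes with the pattern most like that of the main member of each subfamily were found by Pearson correlation of log2 CPM over the 6 distinct libraries. For Cyp4a14 these were Lztr1 (r = 0.998), Lyz2 (0.998) and Asxl2 (0.996). For Cyp4f14 they were Lrrc61 (0.999), Cyp2c29 (0.998) and Agmo (0.997), and for Cyp4v3 Gucy1a2 (0.998), 1700008J07Rik (0.998) and Fdx1 (0.997). Cyp2c29, another liver P450, had 13587 and 18583 counts in control, 3721 and 3407 in endotoxemic, and 5266 and 2322 in LGK974 liver. With 6 points that share 3 groups, and the best of 12701 rows chosen, these values only describe likeness in these libraries.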

How the data were processed

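The authors sequenced liver RNA with the Lexogen QuantSeq method and deposited whole-number counts per gene symbol, without normalization, for 8 libraries. The submitters' processing notes name Bowtie2, edgeR and mm10, and their roles and versions are not given in the sources used here. Libraries identical on every row were counted once. Symbols were compared with RefSeq positions on GRCm38 to find rows out of order by more than 2 Mb, and such rows were set aside in gene list counts.

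Counts were analysed with edgeR 4.0.16 in R 4.3.3 (filterByExpr, TMM, 1 quasi-likelihood fit of the 6 distinct libraries with group as factor). P-values were adjusted by Benjamini-Hochberg over 12701 rows at a threshold of 0.05. SE were derived from the F statistic. On simulated data for endotoxemic against control (12410 genes), 81% of 200 changed genes were called and 6.9% of calls were false.

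The members and gene lists were chosen with earlier results of these data known. Named genes were to be the 10 members, other Cyp4 genes with at least 3 counts, Ppara, Por, sex chromosome genes, the 3 largest rises and falls of each list in the first 2 comparisons, and the 3 most like each subfamily's most abundant member. Not every such list gene is described above. Among those left out, log2 fold changes of endotoxemic against control liver were −8.29 for Nr0b2, −5.54 for Nr1i3, −4.89 for Cux2, 2.58 for Socs2 and 6.05 for Scara5. Alternatives were other filters and scaling, DESeq2 1.42.0, a replicate block, only 2 groups, all 8 libraries, rows out of order left out and each library left out. Summing near-identical genes was added after seeing the data.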

Additional observations from a re-analysis of the deposited data

How the results depend on the processing

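Over the alternatives, all 10 genes kept their sign in endotoxemic against control and in LGK974 against control liver, and 5 did in LGK974 against endotoxemic liver. With each library left out in turn, endotoxemic against control gave 0 to 1 genes higher and 4 to 8 lower, LGK974 against endotoxemic 2 to 4 higher and 0 to 3 lower, and LGK974 against control 2 higher and 3 to 8 lower. Fewer samples remain in these fits. With at least 10 counts in every library, 1 gene was called higher in each comparison with LGK974, since Cyp4a12b was no longer tested. In LGK974 against endotoxemic liver 1 gene was called lower, Cyp4f15, with no filter on low counts, with the identical libraries as separate samples and with DESeq2. With the identical libraries as separate samples Cyp4a32 was called higher (adjusted p = 0.0258). In that comparison the value of Cyp4a14 turned to −0.12 with the replicate block, and over the libraries left out the values ran from −1.17 to 1.05 for Cyp4a10, −2.33 to 1.26 for Cyp4a14 (both lowest without LGK974 library 2 and highest without library 1), −0.37 to 0.50 for Cyp4a31 (below 0 without LGK974 library 2 or, at −0.21, endotoxemic library 2), −0.08 to 0.90 for Cyp4v3 and −1.57 to 0.00 for Cyp4f14 (both lowest without LGK974 library 1). The cause was not tested. The replicate numbers do not pair the libraries (correlations of −0.00749 to 0.14). Beside the call of Cyp4a14 against control given above, the replicate block changed no member's call. Of 1344 gene list counts under alternatives, 191 moved by more than 1.5 times. Counts under 10 in at least 1 library leave Cyp4a12b and Cyp4a32 untested under the stricter filter, and each group holds 2 distinct libraries.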
